A study of Mus musculus with 15 samples.

Results

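Lewis lung carcinoma (LL2) cells and their *KEAP1* and *NRF2* knockout clones were compared for 8 genes: complement *C3* and genes that start clotting, dissolve clots or hold these reactions back. The genes are *F3*, *Tfpi*, *Thbd*, *Plau*, *Plat*, *Plaur*, *Serpine2* and *C3*. They were taken by gene symbol, as a set put together with earlier results of these data known, from a table of 35880 gene symbols, and all 8 passed the filter on low values that left 14652 genes to be tested.

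RNA was sequenced from 5 mouse lines with 3 biologic replicates each. LL2 WT is the unedited parental LL2 line, which carries a luciferase gene. *KEAP1* KO #1, *KEAP1* KO #2 and *KEAP1* KO #3 (clones #1, #2 and #3 in what follows) were edited with CRISPR-Cas9 in *KEAP1*, and *NRF2* KO is 1 clone edited in *NRF2* (*Nfe2l2* in the mouse). Each knockout line grew from a single sorted cell of LL2, so every p-value below measures the spread between cultures of a clone and not the spread between clones made the same way, and a difference of the *NRF2* KO line cannot be told apart from a feature of its clone. All cells were cultured alone, without treatment, and RNA was taken 1 day after splitting. Levels are given in CPM, counts scaled to one total for all samples, and the read depth of each sample is unknown.

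Tissue factor on a cell surface binds factor VII and starts the clotting cascade that ends in thrombin and fibrin. Plasmin undoes fibrin and cuts matrix proteins; it is made from plasminogen by urokinase, which works on its surface receptor, or by the tissue-type activator. Serpins block these proteases, thrombomodulin turns thrombin toward the activation of protein C, and C3 is the protein on which all routes of complement activation meet. KEAP1 marks the transcription factor NRF2 for destruction, so cells that lack KEAP1 accumulate NRF2.

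The knockout labels were first set against the targeted genes. *Keap1* averaged 23.0 ± 1.03 CPM (SD, n = 3) in LL2 WT, 11.8 ± 0.889 in clone #1, 5.53 ± 1.57 in clone #2, 5.58 ± 1.60 in clone #3 and 22.7 ± 1.78 in *NRF2* KO. The *NRF2* KO samples still held 119 ± 24.0 CPM of *Nfe2l2* transcript, against 186 ± 19.6 in LL2 WT. Its level did not set this line apart, with 96.4 ± 8.39 CPM in clone #1, 123 ± 1.23 in clone #2 and 116 ± 5.73 in clone #3. The *KEAP1* KO clones together differed from *NRF2* KO by −0.08 on the log2 scale (adjusted p = 0.64 from limma). *Nqo1*, a classical NRF2 target, averaged 30.3 CPM in LL2 WT, 9.82 in *NRF2* KO and between 276 and 488 in the *KEAP1* KO clones. Among markers of a lung epithelial cell, *Krt8* (at least 65.1 CPM) and *Krt18* (at least 234 CPM) were present in all 15 samples, while *Epcam*, *Cdh1* and *Nkx2-1* stayed under 0.1 CPM throughout. Of the mesenchymal markers, *Vim* reached at least 1534 CPM in every sample, while *Col1a1* stayed at or under 0.829, *Thy1* at or under 1.46 and *Pdgfrb* at or under 6.61 CPM.

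A gene is described as called where limma gave an adjusted p under 0.05 (Benjamini-Hochberg, over the 14652 genes tested) and the log2 fold change exceeded 1 in size. Fold changes were fitted on log2(CPM + 0.1), which understates the change of genes with low values, and fold ratios are ratios of mean CPM. The comparisons with LL2 WT share the same 3 control samples.

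The 8 genes lie on 7 chromosomes of the GRCm38 assembly (GENCODE M21). *F3* lies on chromosome 3 (121723537 to 121735048, plus strand), *Tfpi* on chromosome 2 (84432855 to 84476775, minus strand) and *Thbd*, also on chromosome 2 and with a single annotated transcript, from 148404466 to 148408188 on the minus strand. *Plau* lies on chromosome 14 (20836660 to 20843385, plus strand), *Plat* on chromosome 8 (22757727 to 22782844, plus strand) and *Plaur* on chromosome 7 (24462484 to 24475968, plus strand). *Serpine2* lies on chromosome 1 (79794197 to 79861180, minus strand) and *C3* on chromosome 17 (57203970 to 57228136, minus strand). At most 1.39% of the 31-base stretches of a member's transcripts, the share in *Serpine2*, also occurred in another gene, so few reads of these genes could be split with a near copy.

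RefSeq start windows of GRCm38.p6 were found for 5 of the 8 members, namely *F3*, *Tfpi*, *Plaur*, *Serpine2* and *C3*, in 6 windows because *Tfpi* has 2. *Thbd*, *Plau* and *Plat* were not matched. The 250 bases before the start were searched on both strands for TGACNNNGC, the core of the antioxidant response element that NRF2 binds, and for TGANTCA, the site of AP-1 factors. The 2 motifs share their first letters, and a match of the second can begin a match of the first. TGACNNNGC was in 3338 of 32851 windows of all genes (10.16%) and in none of the 6 windows of members. TGANTCA was in 2217 windows of all genes (6.75%) and in the windows of *F3* and *Plaur*. A match describes these letters only. The windows of *F3* and *Plaur* are shown for their matches, in capitals, and that of *C3* because it had the highest fold ratio among the members. They read 5′ to 3′ on the strand of the gene, at chr3:121723287-121723536 (plus), chr7:24462233-24462482 (plus) and chr17:57228137-57228386 (minus).
F3: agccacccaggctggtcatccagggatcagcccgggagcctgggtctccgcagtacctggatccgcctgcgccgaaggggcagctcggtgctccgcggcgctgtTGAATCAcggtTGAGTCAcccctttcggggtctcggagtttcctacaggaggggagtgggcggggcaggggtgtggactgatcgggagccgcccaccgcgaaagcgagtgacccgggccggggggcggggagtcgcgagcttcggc
Plaur: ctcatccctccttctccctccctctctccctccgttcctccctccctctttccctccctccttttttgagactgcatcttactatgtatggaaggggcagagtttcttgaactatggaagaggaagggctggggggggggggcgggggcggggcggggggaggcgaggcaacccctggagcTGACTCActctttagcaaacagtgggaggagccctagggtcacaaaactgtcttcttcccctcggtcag
C3: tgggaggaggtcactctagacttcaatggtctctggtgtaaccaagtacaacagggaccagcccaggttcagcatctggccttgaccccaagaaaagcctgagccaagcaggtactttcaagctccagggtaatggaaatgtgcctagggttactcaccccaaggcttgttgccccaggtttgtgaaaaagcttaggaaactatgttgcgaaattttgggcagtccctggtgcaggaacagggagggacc
The matches of *F3* began 146 and 135 bases before the start and that of *Plaur* began 69 bases before it.

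Both plasminogen activators fell and the urokinase receptor rose in all 3 *KEAP1* KO clones, together with a rise of *C3* and a fall of *Thbd*. In clone #1 6 of the 8 members were called, 3 higher and 3 lower, where 8.54% of all genes tested were called (4.55% higher and 3.99% lower). In clone #2 5 members were called, 2 higher and 3 lower, against 13.7% of all genes (5.94% and 7.75%), and in clone #3 5 members, again 2 higher and 3 lower, against 13.4% (6.09% and 7.34%). The samples did not overlap with LL2 WT for 7, 6 and 7 members in clone order, where 37.0%, 42.0% and 40.0% of all genes did not overlap. Because members moved both ways, their median log2 fold change was −0.07, −0.13 and −0.08 in clone order, beside 0.11, 0.03 and 0.02 over all genes tested.

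In *NRF2* KO limma called 0 of the 8 members, where 0.464% of all genes were called. At an unadjusted p under 0.05 there were 3 members (11.2% of all genes), namely *F3*, *Tfpi* and *Thbd*, each with a lower mean than LL2 WT. The samples of *F3* and *Thbd*, 2 of the 8 members, did not overlap with LL2 WT (13.2% of all genes). The members' median log2 fold change was −0.64, beside 0.04 over all genes tested.

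**Figure D1:**
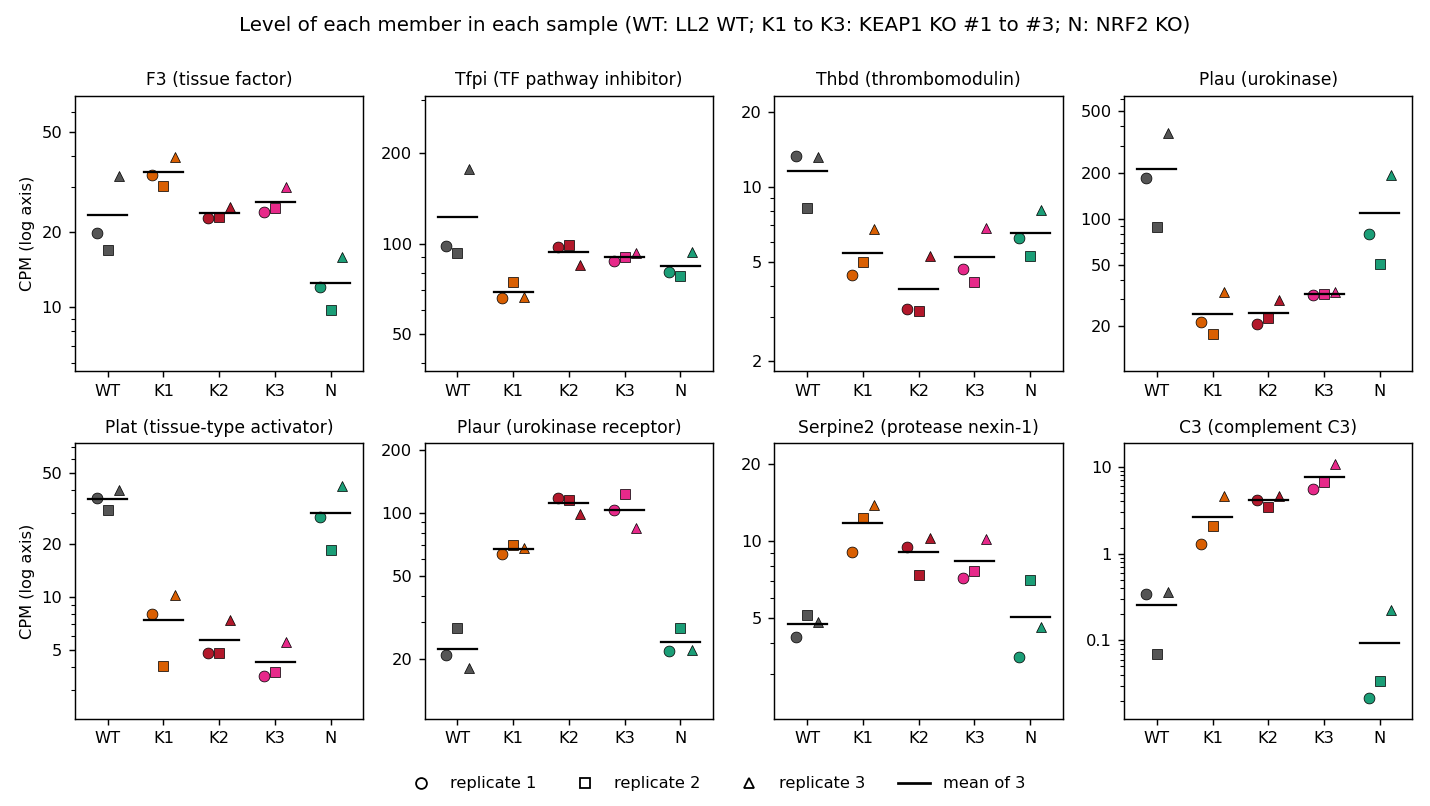
CPM of the 8 members (log axis, 1 panel each) in the 15 samples of the 5 lines, with a symbol per replicate and a bar at the mean of 3. *Plau* and *Plat* lie lower and *Plaur* and *C3* higher in all 9 *KEAP1* KO samples than in any LL2 WT sample, while the *NRF2* KO samples overlap with LL2 WT in these 4 genes.

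*F3* encodes tissue factor, the trigger of clotting. Replicates 1 to 3 of LL2 WT held 19.8, 16.9 and 33.2 CPM (mean 23.3 ± 8.72 CPM, SD, n = 3). Clone #1 held 33.8, 30.4 and 39.7 CPM, clone #2 22.7, 22.9 and 25.2 CPM, and clone #3 23.8, 24.8 and 30.2 CPM. *NRF2* KO held 12.02, 9.72 and 15.8 CPM, every sample below every sample of the other 4 lines. Clones #2 and #3 sat inside the LL2 WT range, and clone #1 reached into it. No knockout was called against LL2 WT: the log2 fold change was 0.62 in clone #1 (95% interval 0.13 to 1.12, adjusted p = 0.0648 from limma), 0.08 in clone #2 (adjusted p = 0.824), 0.23 in clone #3 (adjusted p = 0.476) and −0.86 in *NRF2* KO (−1.35 to −0.36, adjusted p = 0.152). In order of mean level the lines ran from clone #1 through clone #3, clone #2 and LL2 WT to *NRF2* KO, and the neighbours from clone #3 to LL2 WT overlapped.

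*Tfpi* encodes the inhibitor that shuts off the tissue factor and factor VIIa complex. Its LL2 WT replicates were at 98.3, 93.1 and 177 CPM, those of clone #1 at 65.8, 74.7 and 66.6 CPM, and those of clone #2 at 97.4, 98.7 and 84.6 CPM. Clone #3 held 87.8, 89.9 and 92.9 CPM and *NRF2* KO 80.2, 78.1 and 93.6 CPM. A single LL2 WT sample, replicate 3, stood above the other 14, and clone #1 was the line with the lowest samples. Its log2 fold change of −0.77 (95% interval −1.18 to −0.36, adjusted p = 0.0108 from limma) did not reach the size for a call. The values in clone #2 (−0.33, adjusted p = 0.199), clone #3 (−0.38, adjusted p = 0.141) and *NRF2* KO (−0.49, adjusted p = 0.343) missed the threshold. With *F3* and *Tfpi* set side by side within each sample, the ratio of their CPM averaged 0.190 ± 0.0103 in LL2 WT, 0.505 ± 0.0948 in clone #1, 0.254 ± 0.0374 in clone #2, 0.291 ± 0.0299 in clone #3 and 0.148 ± 0.0223 in *NRF2* KO (SD, n = 3, no test was run on this ratio). The ratio is not a ratio of molecules, since CPM is not scaled to transcript length.

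*Thbd* encodes thrombomodulin, the receptor that redirects thrombin to protein C. It was at 13.2, 8.24 and 13.2 CPM in LL2 WT, at 4.42, 4.97 and 6.78 CPM in clone #1 and at 3.23, 3.18 and 5.25 CPM in clone #2. Clone #3 held 4.65, 4.15 and 6.84 CPM and *NRF2* KO 6.24, 5.28 and 8.09 CPM. All 12 knockout samples lay below all 3 LL2 WT samples. *Thbd* fell in all 3 clones, with log2 fold changes of −1.08 (SE 0.28), −1.55 and −1.13 in clone order, at limma's adjusted p of 0.0139, 0.00099 and 0.00747. In *NRF2* KO the log2 fold change was −0.80 (adjusted p = 0.285), which is not called. The call in clone #1 lay close to the threshold: it was lost at a pseudocount of 1 CPM (−0.96), with only the 2 lines in the fit (adjusted p = 0.0507), and without LL2 WT replicate 1 (−0.96) or 3 (−0.96) or clone #1 replicate 1 (−0.95) or 2 (−1.03, adjusted p = 0.0527). The call in clone #3 was lost without its replicate 2 (−0.99, adjusted p = 0.0385). In a bulk sample, fewer cells that express a gene and less RNA of it per cell cannot be told apart. Of the endothelial markers, *Kdr* and *Tek* stayed under 0.1 CPM in all samples, while *Pecam1* was at 2.42 to 7.17 CPM and *Cdh5* at or under 1.54 CPM. The 4 genes of that list summed to between 2.48 and 3.70 CPM over the LL2 WT samples and between 2.81 and 6.69 CPM over those of the *KEAP1* KO clones. Over the *NRF2* KO samples they summed to between 4.08 and 7.49 CPM.

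*Plau* encodes urokinase, the plasminogen activator that works on the cell surface. The LL2 WT replicates were at 183, 88.2 and 361 CPM, a wide spread around the mean of 211 ± 138 CPM. Clone #1 was at 21.5, 17.9 and 33.2 CPM, clone #2 at 20.8, 22.6 and 29.8 CPM, and clone #3 at 32.0, 32.4 and 33.2 CPM. Even the lowest LL2 WT sample exceeded the highest *KEAP1* KO sample, and the gap held in replicates 1 and 2 and in replicate 3 taken apart. The mean was 8.71-fold lower in clone #1, 8.65-fold lower in clone #2 and 6.47-fold lower in clone #3. The log2 fold changes of −2.94 (SE 0.49, adjusted p = 0.001), −2.90 (adjusted p = 0.000678) and −2.46 (adjusted p = 0.00201, all from limma) were called under every alternative tried. *NRF2* KO held 80.3, 50.6 and 194 CPM, a range that overlapped with LL2 WT and lay above all *KEAP1* KO samples. Its log2 fold change against LL2 WT was −0.96, with an interval from −2.02 to 0.09 that does not exclude a difference of the size for a call (adjusted p = 0.503).

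*Plat* encodes the tissue-type plasminogen activator, the fibrin-bound enzyme known from clot dissolution in vessels. LL2 WT held 36.4, 30.9 and 40.2 CPM and *NRF2* KO 28.3, 18.4 and 42.2 CPM. The *KEAP1* KO clones held 7.97, 4.09 and 10.26 CPM (#1), 4.85, 4.85 and 7.44 CPM (#2) and 3.60, 3.78 and 5.56 CPM (#3). Thus the 9 *KEAP1* KO samples stayed at or under 10.26 CPM and the 6 samples of LL2 WT and *NRF2* KO at or above 18.4 CPM. Mean *Plat* was 4.82-fold, 6.27-fold and 8.31-fold lower than in LL2 WT in clone order, with log2 fold changes of −2.34 (SE 0.34, adjusted p = 0.000425), −2.65 (adjusted p = 9.61e-05) and −3.04 (adjusted p = 2.71e-05, all from limma). In *NRF2* KO it was −0.34 (95% interval −1.09 to 0.40, adjusted p = 0.777). The list of 4 mesenchymal markers, nearly all of it *Vim*, summed to 3448 to 5430 CPM in LL2 WT and to 1535 to 2034 CPM over the *KEAP1* KO clones, and its part in the fall of both activators was not tested. Over the *NRF2* KO samples this list summed to 3132 to 4292 CPM.

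*Plaur* encodes the receptor that holds urokinase at the cell surface. Its LL2 WT replicates were at 20.9, 28.1 and 18.1 CPM and its *NRF2* KO replicates at 21.7, 28.1 and 22.0 CPM. Clone #1 held 63.5, 69.8 and 68.0 CPM, clone #2 119, 116 and 98.9 CPM, and clone #3 103, 123 and 84.8 CPM. The clones formed a separate upper range, within which clone #1 lay below the other two. The rise over LL2 WT was 3.01-fold in clone #1 (log2 fold change 1.61, SE 0.17, adjusted p = 3.37e-05), 4.97-fold in clone #2 (2.33, adjusted p = 6.76e-07) and 4.65-fold in clone #3 (2.22, adjusted p = 9.99e-07, all from limma). In *NRF2* KO it was 0.11, with an interval from −0.25 to 0.48 (adjusted p = 0.858). The activator and its receptor therefore moved in opposite directions in each *KEAP1* KO clone. Within a sample, the ratio of *Plau* to *Plaur* CPM was 8.79, 3.14 and 19.99 in the LL2 WT replicates and between 0.175 and 0.488 in the 9 *KEAP1* KO samples. In the *NRF2* KO replicates it was 3.70, 1.80 and 8.83.

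*Serpine2* encodes protease nexin-1, a serpin that inhibits thrombin, urokinase and the tissue-type activator. It was at 4.20, 5.14 and 4.83 CPM in LL2 WT and at 3.52, 7.05 and 4.61 CPM in *NRF2* KO. Clone #1 held 9.09, 12.34 and 13.8 CPM, clone #2 9.46, 7.35 and 10.299 CPM, and clone #3 7.16, 7.63 and 10.17 CPM. The 9 samples of the *KEAP1* KO clones were higher than all 6 samples of LL2 WT and *NRF2* KO. *Serpine2* rose in clone #1 (log2 fold change 1.28, SE 0.25, adjusted p = 0.0025 from limma). In clone #2 (0.91, 95% interval 0.38 to 1.44, adjusted p = 0.0127) and clone #3 (0.79, 0.26 to 1.32, adjusted p = 0.026) the difference was smaller than the size for a call. For clone #2 it was called after quantile normalization (1.08) and without its replicate 2 (1.05). The *NRF2* KO value was 0.05 (adjusted p = 0.97).

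*C3* encodes the central complement protein, which is cut into C3a and C3b on activation. The transcript was low in LL2 WT, at 0.347, 0.0704 and 0.358 CPM, and in *NRF2* KO, at 0.0219, 0.0344 and 0.221 CPM. Clone #1 held 1.28, 2.09 and 4.65 CPM, clone #2 4.14, 3.49 and 4.67 CPM, and clone #3 5.50, 6.71 and 10.7 CPM. All 9 *KEAP1* KO samples lay above all 6 others, and every clone #3 sample lay above every sample of the other clones. *C3* rose 10.34-fold, 15.9-fold and 29.5-fold over LL2 WT in clone order, from a low base that makes these ratios imprecise. The log2 fold changes were 2.90 (SE 0.52, adjusted p = 0.00165), 3.67 (adjusted p = 0.000179) and 4.51 (adjusted p = 3.08e-05, all from limma). At a pseudocount of 1 CPM they were 1.45, 2.02 and 2.74, still called. In *NRF2* KO the value was −0.91 (95% interval −2.03 to 0.21, adjusted p = 0.564). The liver is the main source of C3, and the 3 liver markers summed to at most 0.202 CPM in any sample, with *Alb* and *Ttr* under 0.1 CPM in all. The 4 leukocyte markers summed to 2.96 to 5.29 CPM in LL2 WT, 5.32 to 9.96 in clone #1, 8.92 to 22.7 in clone #2, 14.0 to 36.7 in clone #3 and 3.44 to 5.80 in *NRF2* KO. Of these, *Cd68* reached 36.5 CPM, *Lyz2* stayed at or under 2.60 CPM, *Ptprc* stayed at or under 0.192 CPM and *Adgre1* was listed at 0 in every sample. The sums in clones #2 and #3 were therefore mostly *Cd68*.

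**Figure D2:**
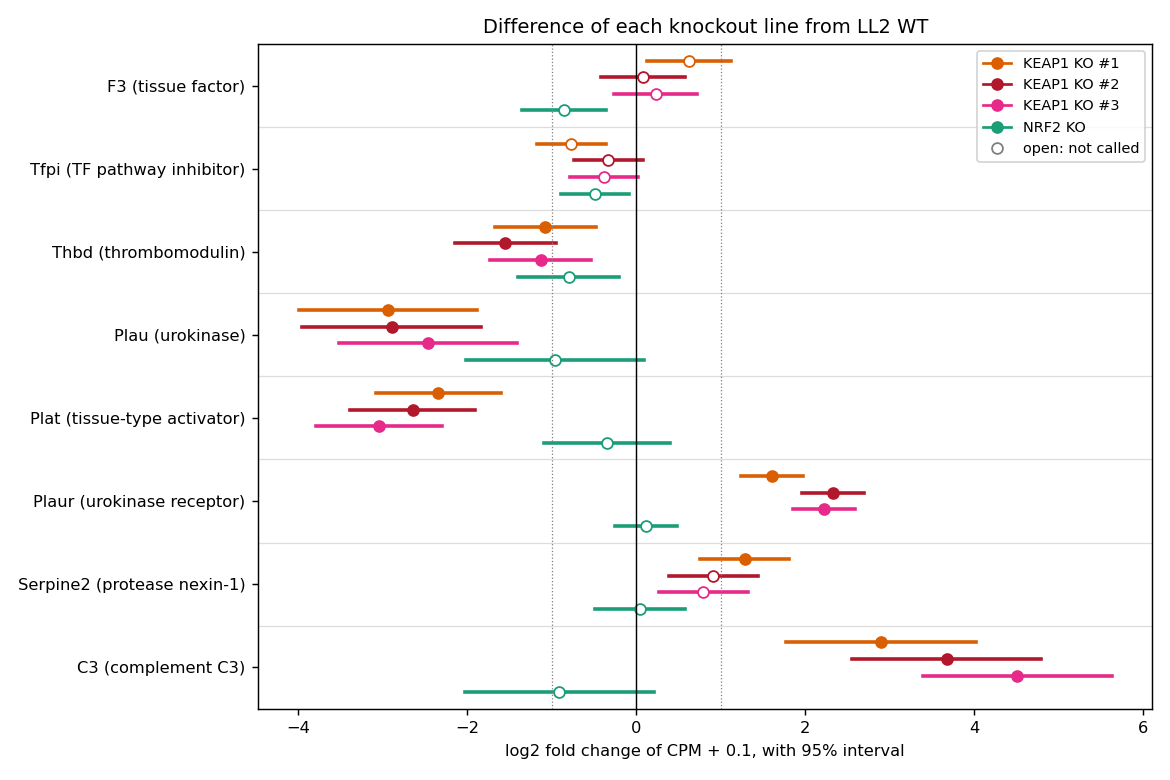
Log2 fold change of CPM + 0.1 against LL2 WT (points) with its 95% interval (lines) for each member in the 4 knockout lines, where filled points are called and dotted lines mark an absolute value of 1. The *KEAP1* KO points run from −3.04 (*Plat*, *KEAP1* KO #3) to 4.51 (*C3*, *KEAP1* KO #3), and the *NRF2* KO points, all open, from −0.96 to 0.11.

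Since NRF2 is released in one kind of knockout and removed in the other, the 9 *KEAP1* KO samples were also compared with the 3 *NRF2* KO samples, which leaves LL2 WT out of the contrast. Of the 8 members, 5 were called, 3 higher and 2 lower, where 9.94% of all genes were called (5.19% higher and 4.75% lower), and 6 did not overlap between the groups (16.5% of all genes). The members' median log2 fold change was 0.47, beside −0.0029 over all genes tested. *F3*, which was called in no line against LL2 WT, was 2.25-fold higher in the *KEAP1* KO clones than in *NRF2* KO (log2 fold change 1.17, SE 0.19, 95% interval 0.77 to 1.57, adjusted p = 0.000452 from limma). Its 9 *KEAP1* KO samples began at 22.7 CPM and its *NRF2* KO samples ended at 15.8 CPM. *Plaur* was higher by 1.94 (SE 0.14, adjusted p = 3.88e-07) and *C3* by 4.60 (SE 0.42, adjusted p = 4.01e-06) on the log2 scale. *Plau* was lower, at −1.81 (SE 0.40, adjusted p = 0.00466), and *Plat* at −2.33 (SE 0.28, adjusted p = 4.62e-05). *Serpine2* was at 0.95 (95% interval 0.52 to 1.38, adjusted p = 0.00341), just under the size for a call, which it passed without clone #1 replicate 1 (1.01) or *NRF2* KO replicate 2 (1.21). For *Tfpi* the difference was −0.0049 with an interval from −0.34 to 0.33 (adjusted p = 0.987), and for *Thbd* −0.45, from −0.94 to 0.03 (adjusted p = 0.164).

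The *KEAP1* KO clones were then compared with each other. Between clone #1 and the other clones as a pair, limma called 0 members (5.14% of all genes were called), 4 had an unadjusted p under 0.05 (28.7% of all genes), and 3 did not overlap (21.8%). *Plaur* was lower in clone #1 at an adjusted p of 0.00804 (log2 fold change −0.67, SE 0.15, 95% interval −0.98 to −0.35), and its 3 samples lay below the 6 others. *F3* (0.47, adjusted p = 0.134) lay above and *Tfpi* (−0.41, adjusted p = 0.111) below in all clone #1 samples. *C3* was at −1.20 (SE 0.45, adjusted p = 0.0923), and this difference was called after quantile normalization (−1.34, adjusted p = 0.0305), with replicate 3 as a batch (adjusted p = 0.0103) and without clone #1 replicate 3 (−1.68, adjusted p = 0.0406). Between clone #3 and #2, limma called 0 members (0.485% of all genes were called), 0 had an unadjusted p under 0.05 (8.22%), and 2, *Plau* and *C3*, did not overlap (17.0%). The *C3* difference there was 0.83 (adjusted p = 0.802) and that of *Plau* 0.43 (adjusted p = 0.972). Their 95% intervals ran from −0.29 to 1.95 and from −0.62 to 1.49, so these values do not show that the clones were alike.

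**Figure D3:**
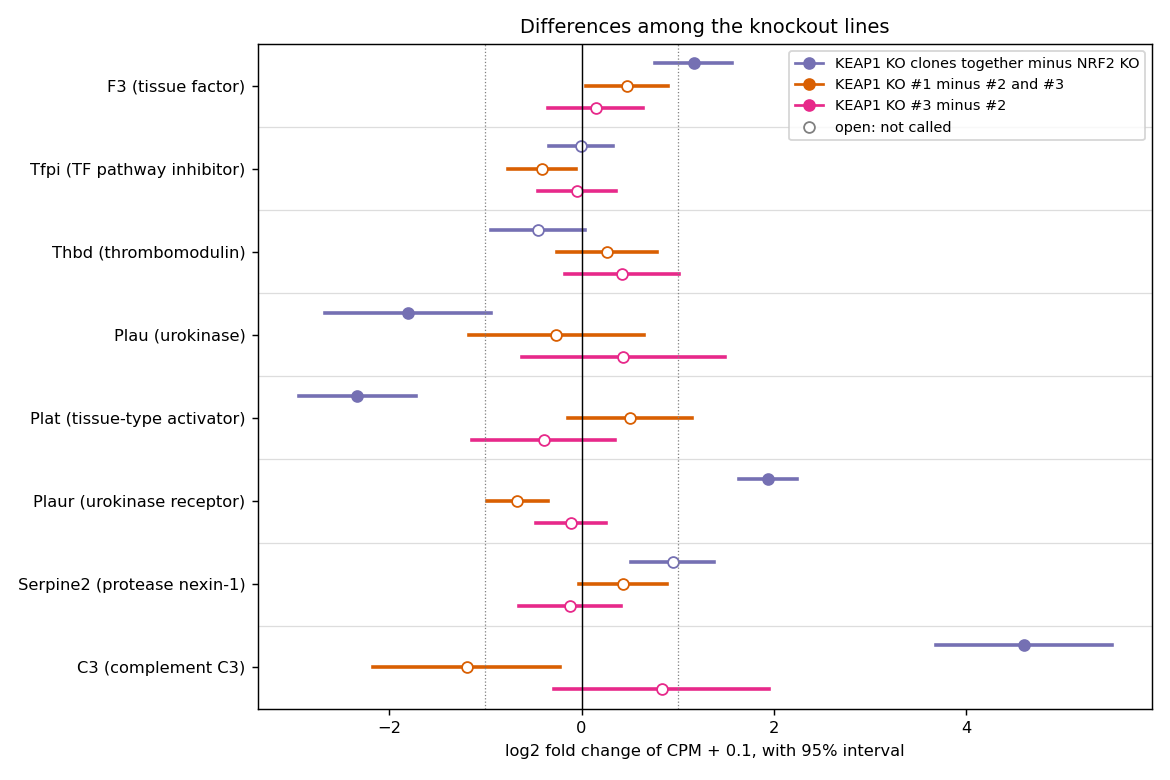
Log2 fold change of CPM + 0.1 (points) with its 95% interval (lines) for each member in 3 comparisons that leave LL2 WT out, where filled points are called. *C3* (4.60), *Plaur* (1.94) and *F3* (1.17) lie to the right and *Plat* (−2.33) and *Plau* (−1.81) to the left in the comparison of the *KEAP1* KO clones with *NRF2* KO, and no point is filled in the comparisons between clones.

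Replicate 3 stood apart from replicates 1 and 2 in several members. *F3*, *Plau*, *Plat* and *C3*, 4 of the 8 members, had their highest value in replicate 3 in all 5 lines, as 20.5% of all genes tested did. *Thbd* had it in 4 lines and *Plaur* in none. Measured as the log2 distance of replicate 3 from the mean of the other replicates, the median over the 5 lines was 0.80 for *C3*, 0.76 for *Plau*, 0.61 for *Plat*, 0.52 for *Thbd*, 0.31 for *F3* and −0.24 for *Plaur*. *Plau* was at 361 CPM in LL2 WT replicate 3 and at 29.8 to 33.2 CPM in the same replicate of the *KEAP1* KO clones, and *C3* at 0.358 against 4.65 to 10.7 CPM. With replicate 3 as a batch in the fit, all member calls against LL2 WT and against *NRF2* KO were kept, and the difference of *F3* in *NRF2* KO (−0.86) had an adjusted p of 0.007 without reaching the size for a call. Other uncalled differences from LL2 WT also had an adjusted p under 0.05 (limma) under some alternative. Among them were *F3* in clone #1 (lowest 0.00336) and *Thbd* in *NRF2* KO (lowest 0.0166). The labels do not say what set this replicate apart.

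To see the members beside the rest of their pathways, 4 lists were read with 72 genes in all: 16 other coagulation factors, 14 thrombin receptors and anticoagulant genes, 16 genes of the plasminogen system and 26 complement genes. Most clotting factors and complement proteins are made in the liver. Of the 72 genes, 33 passed the filter (3, 8, 10 and 12 in list order), as did 14652 of all 35880 genes. Of these 33, 3 were called higher and 5 lower in clone #1 (8.54% of all genes tested were called), 6 higher and 8 lower in clone #2 (13.7%), and 6 higher and 6 lower in clone #3 (13.4%). In *NRF2* KO limma called 0 of the 33 (0.464% of all genes), and 6 had an unadjusted p under 0.05 (11.2%). The median log2 fold change of the 33 genes was −0.10, −0.04 and −0.17 in clone order and 0.06 in *NRF2* KO. The 16 genes called in at least 1 comparison with LL2 WT are described here, except that several with very low values are given by their levels.

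Among the coagulation factors, *F13a1*, the fibrin cross-linking factor XIII chain, and *Vwf*, the platelet-tethering von Willebrand factor, were called higher, both from at most 0.352 CPM in any LL2 WT sample. *F13a1* had a mean of 0.0861 ± 0.0782 CPM in LL2 WT, 0.770 in clone #1, 0.362 in clone #2 and 0.408 in clone #3. The call was lost in all 3 clones at a pseudocount of 1 CPM, in clone #2 without LL2 WT replicate 1 or 3 or its own replicate 1 or 2 (1.06 to 1.33), and in clone #3 without LL2 WT replicate 3 (1.23) or its own replicate 2 (1.37). With only the 2 lines in the fit it was lost in clone #2 (adjusted p = 0.0777) and clone #3 (adjusted p = 0.0539), and after quantile normalization in clone #2 (1.21, adjusted p = 0.0675). *Vwf* averaged 0.269 ± 0.118 CPM in LL2 WT and was called in clone #2 (1.195 ± 0.179 CPM) and clone #3 (1.50 ± 0.637 CPM), but not at a pseudocount of 1 CPM.

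Of the anticoagulant genes, *Procr*, the endothelial protein C receptor, rose in all 3 clones. Its LL2 WT replicates were at 16.0, 16.2 and 23.5 CPM, clone #1 at 59.4, 55.5 and 60.9 CPM, clone #2 at 170.2, 181 and 105 CPM, clone #3 at 152, 147 and 92.5 CPM, and *NRF2* KO at 10.19, 10.4 and 11.4 CPM. The log2 fold changes were 1.67, 3.01 and 2.80 in clone order (adjusted p from 8.62e-07 to 0.000226 from limma), and clone #1 lay below the other clones by 1.23 (adjusted p = 0.0011). Thus thrombomodulin and the protein C receptor, which act together on endothelium, moved in opposite directions. *Proc*, protein C itself, averaged 1.88 ± 0.657 CPM in LL2 WT, 0.332 in clone #1, 0.321 in clone #2 and 0.356 in clone #3. It was called lower in each (−2.37, −2.40 and −2.35), and each call was lost when single replicates were left out: LL2 WT replicate 3 (−2.15 to −2.10) or the clone's own replicate 1 or 2 (−2.19 to −1.97) in all clones, and also LL2 WT replicate 1 in clone #1 (−2.40). Without clone #3 replicate 3 the value in that clone was −2.97. *F2rl1*, the receptor PAR2 that tissue factor complexes can cut, fell from a mean of 26.4 ± 2.45 CPM to 11.1 ± 5.36 in clone #1, 7.55 ± 0.967 in clone #2 and 8.62 ± 1.05 in clone #3. On the log2 scale this was −1.35, −1.80 and −1.61 (adjusted p from 0.000202 to 0.00243 from limma), and the first was lost with only its 2 lines in the fit (adjusted p = 0.0526). *Pros1*, protein S, was called in clone #2 (−1.06), but not at a pseudocount of 1 CPM (−0.96) or after quantile normalization (−0.98). *Gas6*, a protein S relative, was called in clone #3, where 2 of the 3 samples were listed at 0, and not at a pseudocount of 1 CPM. It was low in LL2 WT (0.502 ± 0.291 CPM). In *NRF2* KO it was also lower in every sample (0.0787 ± 0.0669 CPM, −1.70, adjusted p = 0.218 from limma), without a call.

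In the plasminogen system, *Lrp1*, the endocytic receptor that clears protease and serpin complexes, fell in clone #1, from 33.3 ± 12.6 CPM to 7.51 ± 3.98 CPM (−2.24, adjusted p = 0.00744 from limma), and was at −1.31 (adjusted p = 0.0671) and −1.13 (adjusted p = 0.109) in the other clones. *Serpinb6a* rose in clone #2 (1.23) and clone #3 (1.28), from 208 ± 29.5 CPM to 485 ± 36.9 and 499.6 ± 19.7 CPM, though it has close relatives among which the authors' counting could split reads. *Hpn*, hepsin, was listed at 0 in all LL2 WT samples, averaged 0.512 ± 0.341 in clone #1, 0.616 ± 0.305 in clone #2 and 0.782 ± 0.373 CPM in clone #3 and was called in each except at a pseudocount of 1 CPM.

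Of the complement genes other than *C3* that were called, most were lower. In clone #1 2 of the 12 tested were called, both lower, where 3.99% of all genes were called lower and 4.55% higher. In clone #2 5 were lower and 1 higher (7.75% and 5.94% of all genes), and in clone #3 3 were lower and 1 higher (7.34% and 6.09%). The list as a whole did not fall in clones #2 and #3: the median log2 fold change of the 12 genes was −0.27, 0.36 and 0.24 in clone order. *Clu*, clusterin, an inhibitor of the terminal complement complex, fell from a mean of 314 ± 115 CPM to 67.2 ± 27.1, 18.1 ± 6.63 and 25.7 ± 8.81 CPM in clone order (−2.26, −4.10 and −3.59, adjusted p from 1.41e-05 to 0.00222 from limma). *Masp1*, a protease of the lectin pathway, fell from 28.3 ± 18.0 CPM to 5.04 ± 1.22, 2.48 ± 0.915 and 2.52 ± 1.46 CPM (−2.30, −3.33 and −3.39, adjusted p from 0.000145 to 0.00368). *C1ra*, a protease of the C1 complex, fell in clone #2 (−3.07) and clone #3 (−2.71). Without a call, *C1ra* was also lower in clone #1 (−0.95, adjusted p = 0.163 from limma) and *NRF2* KO (−0.61, adjusted p = 0.697). Its partner *C1s1* fell in clone #2 (−3.89, adjusted p = 0.0072, and −4.67 without clone #2 replicate 3). It was at −1.37 (adjusted p = 0.322) in clone #1 and −2.48 (adjusted p = 0.0612) in clone #3, and the difference between clones #3 and #2 (1.41, adjusted p = 0.839) missed the threshold. Both genes have close relatives in the mouse genome.

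*C3ar1*, the receptor of the fragment C3a, averaged 1.06 ± 0.305 CPM in LL2 WT and rose to 2.76 ± 0.491 CPM in clone #2 (1.32) and 2.80 ± 0.532 CPM in clone #3 (1.34), calls that were lost at a pseudocount of 1 CPM (0.87 and 0.89). Clone #1 held 0.967 ± 0.0421 CPM (−0.09) and *NRF2* KO 1.67 ± 0.320 CPM (0.63, adjusted p = 0.356 from limma), neither called. The *KEAP1* KO clones together were at 0.23 against *NRF2* KO (adjusted p = 0.447). *Cd59a*, a membrane inhibitor of the terminal complex that has a close relative, was called lower in clone #2, from 0.975 ± 0.117 to 0.177 ± 0.140 CPM, except at a pseudocount of 1 CPM.

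**Figure D4:**
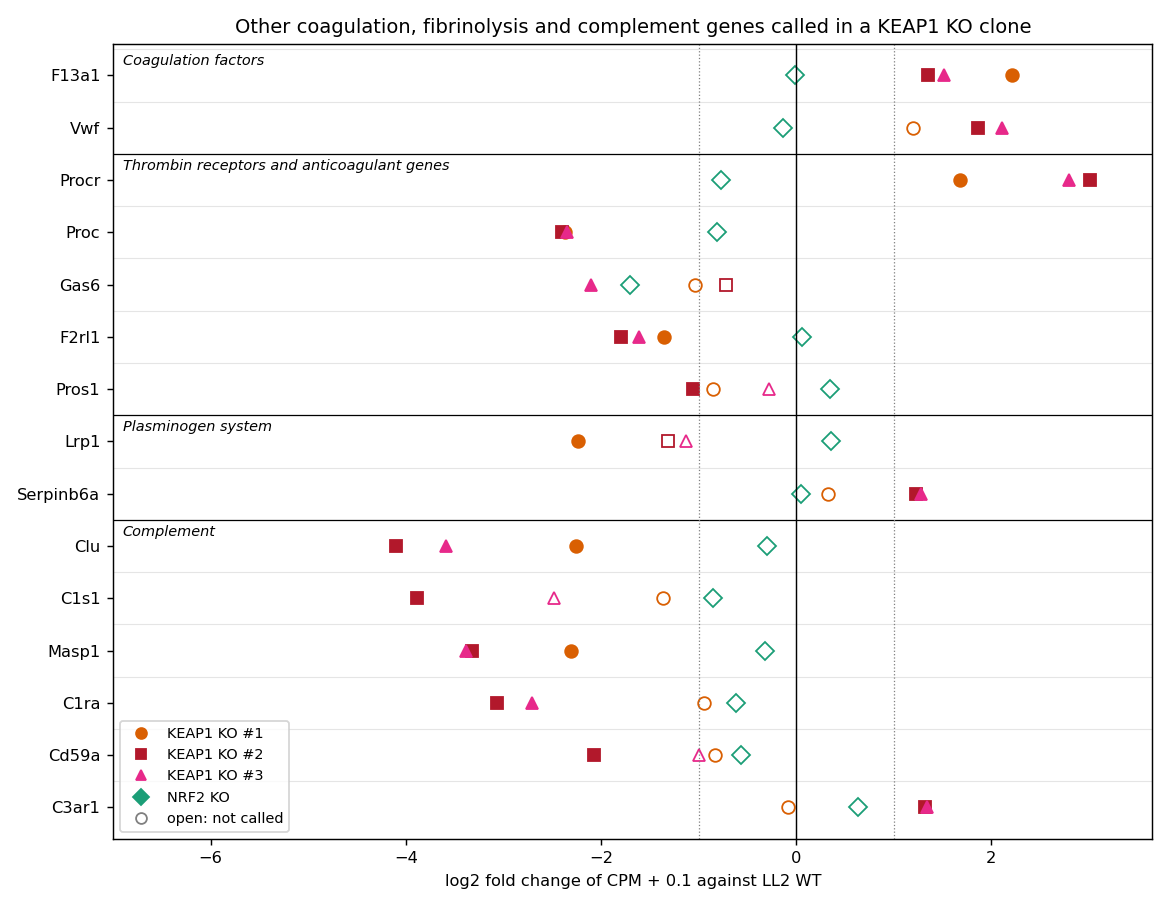
Log2 fold change of CPM + 0.1 against LL2 WT in the 4 knockout lines for 15 genes of the 4 lists that were called in at least 1 *KEAP1* KO clone, where filled symbols are called (*Hpn* is left out because it was listed at 0 in LL2 WT). *Procr* lies highest at 3.01 and *Clu* lowest at −4.10, both in *KEAP1* KO #2, and all *NRF2* KO symbols are open.

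The genes whose levels followed each member most closely over the 15 samples were found by Pearson's r on log2(CPM + 0.1) among 11676 genes, a description over samples that fall into a few groups and share a clone within each line. For *Plaur* they were *Jade3* (r = 0.991) and *Cyb5r4* (0.990), for *Plat* *Mertk* (0.987) and *Lrig1* (0.986), and for *Plau* *Ap3b2* (0.979) and *Bdnf* (0.976). *C3* was closest to *Gipc2* (0.985) and *Slc7a11* (0.982), *Serpine2* to *Pitpnm2* (0.965) and *Plagl2* (0.948), and *Thbd* to *Dnpep* (0.960) and *Pnck* (0.944). For *F3* the closest were *Alyref2* (0.939) and *Tnfrsf1a* (0.928), and *Tfpi* had the lowest best matches, *Eif3e* (0.899) and *Nsa2* (0.887).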

How the data were processed

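RNA of 15 cultures, 3 of each of 5 lines, was sequenced as paired ends. The authors pseudo-aligned the reads with Kallisto, summed the estimates to genes and deposited CPM, counts scaled to one total for all samples. The study's methods name the GRCm38.p6 transcripts and the submitters' processing notes list GRCm39, so the build behind the values is uncertain, and positions given here are those of GRCm38. The CPM are fractional and sum to 999412 to 999525 per sample, from which neither reads nor depth could be recovered, so no counting interval is given. Per sample 17270 to 19750 genes were above 0. The entry that names no gene held 0.0214% to 0.0491% of a sample's CPM and was not used. No 2 samples had identical values.

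The study's filter was applied: genes whose CPM added up to under 3 over the samples were dropped (21228), and 14652 remained. log2(CPM + 0.1) was fitted with limma 3.58.1 in R 4.3.3, with a mean per line in 1 model, contrasts and empirical Bayes with a trend, and p-values were adjusted by the Benjamini-Hochberg method over all genes tested. The procedure was tested on simulated data. Changes were planted only in genes with a mean of at least 1 CPM and a small spread between replicates. The test therefore does not cover genes with low values or a wide spread. Errors are SDs over 3 samples. Alternatives were other pseudocounts (0.02 and 1 CPM), no filter, median-ratio rescaling, quantile normalization, only the lines compared in the fit, no variance trend, the replicate number or replicate 3 as a term, and each replicate left out.

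All 8 members are described. Of 72 further genes in 4 lists (2 others on the lists are not reported here), those called in at least 1 comparison with LL2 WT are named, and their alternatives were added after the data were seen. The 2 genes with the highest Pearson's r were named for each member among genes with a mean of at least 1 CPM. Members and lists were chosen with earlier results of these data known. Figures were drawn in Python 3.11.15 with matplotlib 3.10.9.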

Additional observations from a re-analysis of the deposited data

Results flagged for a closer look

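The *KEAP1* KO clones and the *NRF2* KO clone differed by the test of the difference itself (limma, adjusted p under 0.05) for 6 members. This p measures the spread between cultures, so an effect of the knockout cannot be told apart from a feature of the *NRF2* KO clone. The log2 difference, *KEAP1* KO clones minus *NRF2* KO, was 1.17 for *F3*, −1.81 for *Plau*, 1.94 for *Plaur*, −2.33 for *Plat*, 0.95 for *Serpine2* and 4.60 for *C3*.

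*KEAP1* KO #1 differed from *KEAP1* KO #2 and #3 by the same kind of test for 1 member and, among the 16 genes named from the wider lists, for 5. *Plaur* was at −0.67, *Procr* at −1.23, *Serpinb6a* at −0.93, *Clu* at 1.59, *C1ra* at 1.94 and *C3ar1* at −1.42. The call of *Clu* was lost without *KEAP1* KO #1 replicate 1 (1.41, adjusted p = 0.0632) or replicate 3 (1.37, adjusted p = 0.0627), and that of *C3ar1* at a pseudocount of 1 CPM (−0.94). Between *KEAP1* KO #3 and #2 the test found a difference for *Pros1* (0.79) among these 16 genes and for no member.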

How the results depend on the processing

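Of 504 member values under alternatives that keep all samples, 497 kept their direction and side of the threshold, 4 passed it, 2 missed it and 1 changed sign (*Serpine2* in *NRF2* KO against LL2 WT, −0.0045 after median-ratio rescaling, which took the all-gene median of *KEAP1* KO #1 to 0.0052, against 0.11 as deposited). With single replicates left out, 387 of 408 did so, 4 passed, 5 missed and 12 changed sign. The sign changes were in values near 0: *F3* in *KEAP1* KO #2 against LL2 WT (−0.12 to 0.37), *Plaur* in *NRF2* KO (−0.0256 to 0.29) and between *KEAP1* KO #3 and #2 (−0.24 to 0.0285), *Serpine2* in *NRF2* KO (−0.22 to 0.27), and *Tfpi* between the *KEAP1* KO clones and *NRF2* KO (−0.0546 to 0.0757). The number of members called between *KEAP1* KO #1 and the other clones went from 0 to 1 (*C3*) after quantile normalization, with replicate 3 as a batch and with the replicate block, and ran from 0 to 1 with single replicates left out. The other counts of members moved by at most 1, and the block changed no other member call. Counts over all genes moved more. At a pseudocount of 1 CPM they were 784 (from 1251) in *KEAP1* KO #1, 1275 (from 2006) in *KEAP1* KO #2, 1303 (from 1967) in *KEAP1* KO #3 and 44 (from 68) in *NRF2* KO against LL2 WT, 804 (from 1457) for the clones against *NRF2* KO and 368 (from 753) for *KEAP1* KO #1 against the others. For *NRF2* KO against LL2 WT they were 7 with only these lines in the fit, 173 with replicate 3 as a batch, 179 with the replicate block and 30 to 90 with single replicates left out, and for *KEAP1* KO #3 against #2 (71) they were 29, 141, 135 and 42 to 62 in this order. Samples of different lines share only a replicate number: over 11676 genes, the median correlation of deviations from the line means was 0.276 for the 30 pairs of same-numbered samples and −0.192 for the other 60, and all 3 exceeded 0.1 in 2 of 10 pairs of lines, and in 40 of 60 combinations of a sample with another line the closest sample had the same number. The unknown depth limits the lowest values, those of *C3* in LL2 WT and *NRF2* KO among them.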
